A study of Mus musculus with 6 samples.

Results

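Sphingolipids are membrane lipids built on a long-chain base. Serine palmitoyltransferase joins serine to palmitoyl-CoA in the endoplasmic reticulum, ceramide synthases add a fatty acyl chain, and a desaturase turns dihydroceramide into ceramide. Ceramide is then converted to sphingomyelin or glucosylceramide, or is taken apart by ceramidases. The ceramide synthases differ in the chain length they prefer: CERS2, long known as the main form in liver, makes very-long-chain ceramides, while CERS5 and CERS6 prefer palmitoyl-CoA.

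The genes described here are 10 enzymes of this pathway, taken by symbol from the 55487 genes counted: *Sptlc1* and *Sptlc2* of serine palmitoyltransferase, the ceramide synthases *Cers2*, *Cers4*, *Cers5* and *Cers6*, the dihydroceramide desaturase *Degs1*, the glucosylceramide synthase *Ugcg*, the sphingomyelin synthase *Sgms1* and the acid ceramidase *Asah1*. All 10 symbols matched an Ensembl gene. The set has no threshold, but it was drawn up with earlier results of the same mutant against wild-type comparison in view. The values of these 10 genes are therefore given as a description. Their p-values are not given. The calls that the fit over all genes made among them are counted, also with a library left out, but support nothing.

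RNA was sequenced from hepatocytes, the parenchymal cells of the liver, of adult mice aged 6 to 8 weeks. Mice of 1 group were homozygous for AEG-1-C75S (C75S below) and those of the other were wild type (WT), with 3 libraries each. Both came from matings of AEG-1-C75S heterozygotes, all carry the treatment label Control, and RNA was taken 48 h after the cells were isolated. AEG-1 is encoded by *Mtdh*, and C75S exchanges a cysteine that can carry a palmitoyl group for a serine. The labels name no promoter or Cre driver that would limit the mutation to hepatocytes. Whether each library stands for its own animal is not stated, and n is therefore a number of libraries. Any p-value measures only the spread between these libraries, which may be technical.

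The libraries held 16944723 to 21044292 counts on genes, and C75S replicate 1 was the shallowest. *Mtdh* was measured at 200 ± 10.5 CPM in C75S, against 197 ± 5.18 CPM in the WT libraries (counts per 1000000 counts, ± SD over 3 libraries), a value that does not read the mutated codon. Of 10 hepatocyte markers, 10 were over 3 counts in every library. Comparing the genotypes, edgeR called 2 of them at an adjusted p-value under 0.05, against 3.11% of all genes tested, both higher in C75S. These were *Fgb* (means 1650 CPM in C75S and 1320 in WT, adjusted p = 0.00112) and *Cyp2e1* (114 and 92.0 CPM, adjusted p = 0.00908). *Alb* was lower in C75S on average (log2 fold change -0.15, unadjusted p = 0.0439 in edgeR), and its groups overlapped. Estimates were also lower for *Cps1* (-0.23), *Hnf4a* (-0.06) and *Ttr* (-0.03), and higher for *Apoa1*, *Tat*, *Serpina1a* and *Asgr1*, all with overlap. In bulk RNA, fewer cells of a type and less RNA per cell cannot be told apart.

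Reads of related enzymes can be exchanged in counting, so the coding sequences of the ceramide synthases were compared first. The closest pair, *Cers5* and *Cers6*, was 63.2% identical over the aligned coding sequence, and their longest shared run was 18 bases. The other pairs were 49.4% to 53.9% identical, with shared runs of at most 15 bases. The 90 coding bases that are most alike across the 4 genes are shown 5′ to 3′ from GENCODE M21 transcripts. Some pairs of the genes are more alike in other stretches. Capitals mark the 49 positions at which the 4 sequences are not all the same, and lower case the 41 that all share.
Cers2: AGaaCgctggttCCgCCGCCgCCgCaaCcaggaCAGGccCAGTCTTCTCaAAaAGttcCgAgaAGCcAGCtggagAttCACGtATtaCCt
Cers4: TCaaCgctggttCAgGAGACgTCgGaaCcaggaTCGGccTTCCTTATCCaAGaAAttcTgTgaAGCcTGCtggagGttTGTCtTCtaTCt
Cers5: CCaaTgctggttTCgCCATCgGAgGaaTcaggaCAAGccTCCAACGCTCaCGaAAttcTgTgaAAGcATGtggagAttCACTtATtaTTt
Cers6: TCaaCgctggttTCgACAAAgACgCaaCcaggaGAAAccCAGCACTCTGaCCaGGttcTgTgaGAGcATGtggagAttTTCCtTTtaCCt

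In GRCm38 these stretches run over a splice junction each: chr3:95320992-95321210 on the plus strand (exons 4 and 5 of *Cers2*), chr8:4518290-4518623 on the plus strand (exons 4 and 5 of *Cers4*), chr15:99745926-99747105 on the minus strand (exons 3 and 4 of *Cers5*) and chr2:68947289-69002767 on the plus strand (exons 3 and 4 of *Cers6*). *Cers5* and *Cers6* differ at 27 of these 90 bases. In the 90-base window where this pair is most alike they still differ at 22. No transcript of a gene outside the set matched *Cers5*, *Cers6*, *Cers2* or *Asah1* over at least 100 bases at 90% identity or more. That search left out the genes of the set, so the ceramide synthases were compared with one another over coding sequence only. *Cers4* matched *Vmn2r-ps89*, a pseudogene on the opposite strand that overlaps it, at 99.9% over 889 bases, as well as *Mcmdc2* over 360 bases at 90.6% and *Nap1l1* over 351 bases at 90.3%, so its count is uncertain for those parts. *Ugcg* matched *Cyyr1*, a gene elsewhere in the genome, over 201 bases at 92.5%.

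Levels were compared between genes per length, as TPM (counts per kilobase of exon, scaled to 1000000 in each library). *Cers2* had the highest level of the 10 genes, at 256 ± 6.51 TPM over the 6 libraries (SD), followed by *Asah1* at 140 ± 11.6 TPM and *Degs1* at 129 ± 4.11 TPM. *Sptlc2* and *Sptlc1*, the catalytic partner subunits of the first step, stood at 36.4 ± 1.78 and 26.5 ± 0.863 TPM. *Cers6* followed at 19.2 ± 1.17 TPM, *Ugcg* at 16.8 ± 1.76 TPM, *Sgms1* at 7.73 ± 0.353 TPM and *Cers5* at 4.36 ± 1.31 TPM. The ranges of neighbours in this order did not overlap between libraries, with the exceptions of *Asah1* with *Degs1* and of *Cers6* with *Ugcg*. *Cers4* came last, with 0, 1 and 1 counts in the C75S libraries and 5, 1 and 1 in WT, so that WT replicate 1 was the only library over 3 counts.

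**Figure D1:**
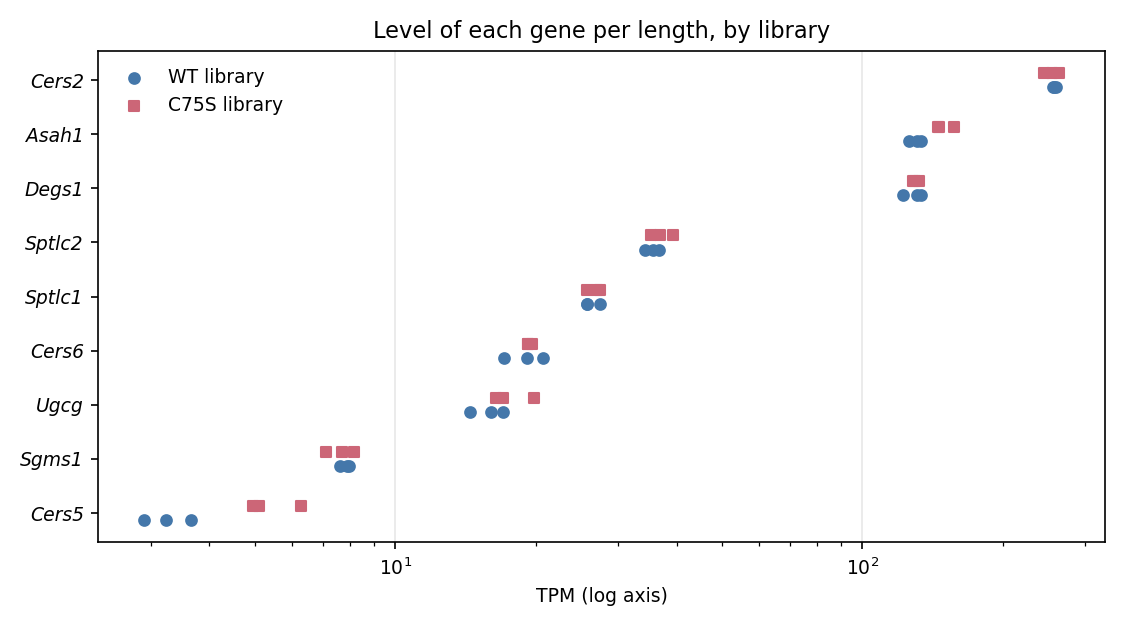
Level of 9 of the 10 genes in TPM, on a log axis, with 1 circle per WT library and 1 square per C75S library; *Cers4*, with 0 to 5 counts, is left out. The genes run from 256 TPM for *Cers2* down to 4.36 TPM for *Cers5*, and the C75S and WT points separate for *Cers5* and *Asah1*.

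Among the 6 ceramide synthases of the mouse, *Cers2* supplied 90.8% to 92.7% of the summed TPM in every library. *Cers6* supplied 6.95% ± 0.25 in C75S against 6.77% ± 0.59 in WT, and *Cers5* 1.95% ± 0.26 against 1.16% ± 0.12 (SD, n = 3 each). *Cers6* exceeded *Cers5* by 3.11, 3.76 and 3.89 times in the C75S libraries and by 6.41, 5.22 and 5.89 times in the WT libraries. The smaller of these ratios were all in C75S. *Cers1* had 0 counts in every library and *Cers3* between 0 and 4.

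The clearest difference between the genotypes in the set was that of *Cers5* (ENSMUSG00000023021, chromosome 15, 99734881 to 99772885, minus strand, GRCm38), which favours palmitoyl-CoA. It was counted 127, 128 and 114 times in the C75S libraries and 81, 90 and 72 times in WT. Scaled for depth these are 7.29, 6.07 and 6.10 CPM in C75S, against 3.85, 4.39 and 3.49 CPM in the WT libraries. Every C75S library lay above every WT library, with the shallow C75S replicate 1 the highest. The means were 6.49 ± 0.70 CPM in C75S, against 3.91 ± 0.45 CPM in the WT libraries (SD, n = 3 each). edgeR put C75S over WT at a log2 fold change of 0.73 (SE 0.17), 1.66-fold higher. *Cers5* overlaps an antisense gene, *Gm17058*, which had 0 counts in every library, and the forward-strand count at *Cers5* was at most 2.

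*Asah1* (ENSMUSG00000031591, chromosome 8, 41340197 to 41374773, minus strand), the lysosomal enzyme that splits ceramide into sphingosine and a fatty acid, was the other gene whose groups did not overlap. It was measured at 174, 166 and 171 CPM in C75S, against 143, 153 and 151 CPM in the WT libraries. The lowest C75S library was thus above the highest WT library. Its means were 170 ± 4.13 CPM and 149 ± 5.23 CPM (SD, n = 3 each), with a log2 fold change of 0.19 (SE 0.05), 1.14-fold higher in C75S. The difference is small beside that of *Cers5*, and rests on 3016 to 3498 counts per library.

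**Figure D2:**
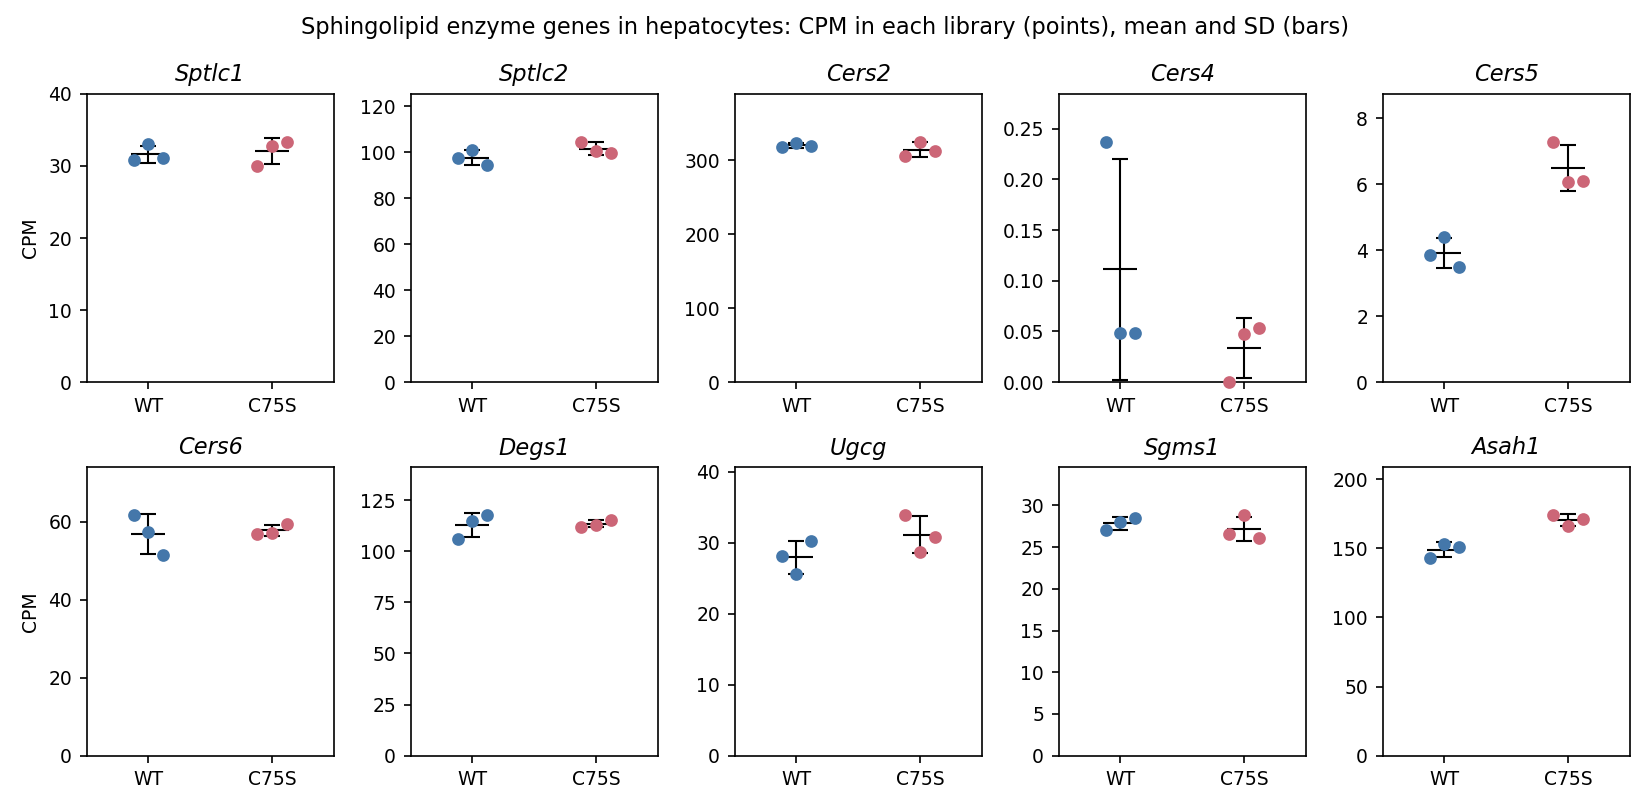
CPM of each of the 10 genes in every library (points), with the group mean and SD (bars), on axes that start at 0; the left group of each panel is WT and the right group C75S, n = 3 libraries each. *Cers5* and *Asah1* are the panels in which the 3 C75S points all lie above the 3 WT points.

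The genes of the first step differed little. *Sptlc1* encodes one chain of serine palmitoyltransferase and was measured at 29.97, 32.8 and 33.4 CPM in C75S, against 30.8, 32.99 and 31.1 CPM in the WT libraries. *Sptlc2*, which encodes the chain that binds the cofactor, was measured at 105, 101 and 99.6 CPM in C75S, against 97.4, 101 and 94.3 CPM in the WT libraries. For both genes the groups overlapped, at log2 fold changes of 0.02 (SE 0.075) and 0.06 (SE 0.05).

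The ceramide synthases other than *Cers5* also overlapped between genotypes. *Cers2* was measured at 306, 325 and 312 CPM in C75S, against 317, 324 and 320 CPM in the WT libraries, a log2 fold change of -0.03 (SE 0.05). *Cers6* was measured at 56.9, 57.3 and 59.5 CPM in C75S, against 61.7, 57.4 and 51.5 CPM in the WT libraries, a log2 fold change of 0.03 (SE 0.07). The WT libraries enclosed the C75S libraries for *Cers6*. *Cers4* was too low for a fold change.

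*Degs1*, which completes ceramide synthesis, was measured at 112, 113 and 115 CPM in C75S, against 106, 115 and 118 CPM in the WT libraries, a log2 fold change of 0.01 (SE 0.05). Here too the WT libraries enclosed the C75S libraries.

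Of the enzymes that use ceramide, *Ugcg* makes glucosylceramide and was measured at 33.9, 28.7 and 30.8 CPM in C75S, against 28.1, 25.5 and 30.2 CPM in the WT libraries. Its C75S mean was higher, at 31.1 ± 2.58 against 27.9 ± 2.32 CPM, but WT replicate 3 lay above C75S replicate 2. The log2 fold change was 0.16 (SE 0.08). *Sgms1* makes sphingomyelin in the Golgi and was measured at 26.6, 28.8 and 26.1 CPM in C75S, against 27.0, 28.1 and 28.5 CPM in the WT libraries, a log2 fold change of -0.03 (SE 0.08). Its groups overlapped.

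Of the 10 genes, 9 passed the filter on low counts, and 2 of these 9, *Cers5* and *Asah1*, had an adjusted p-value under 0.05 in edgeR's quasi-likelihood fit over all genes. In that fit 396 of 12741 genes (3.11%) were called, and the groups of 2291 genes (18%) did not overlap. Because the set was drawn up with this comparison in view, nothing is read from that count. With each library left out in turn, the estimate lay between 0.64 and 0.82 for *Cers5* and between 0.17 and 0.21 for *Asah1* on the log2 scale. In these fits *Cers5* stayed called in 4 of 6 and *Asah1* in 1 of 6. The median log2 fold change of the 9 genes was 0.03, beside -0.003 over all genes tested.

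**Figure D3:**
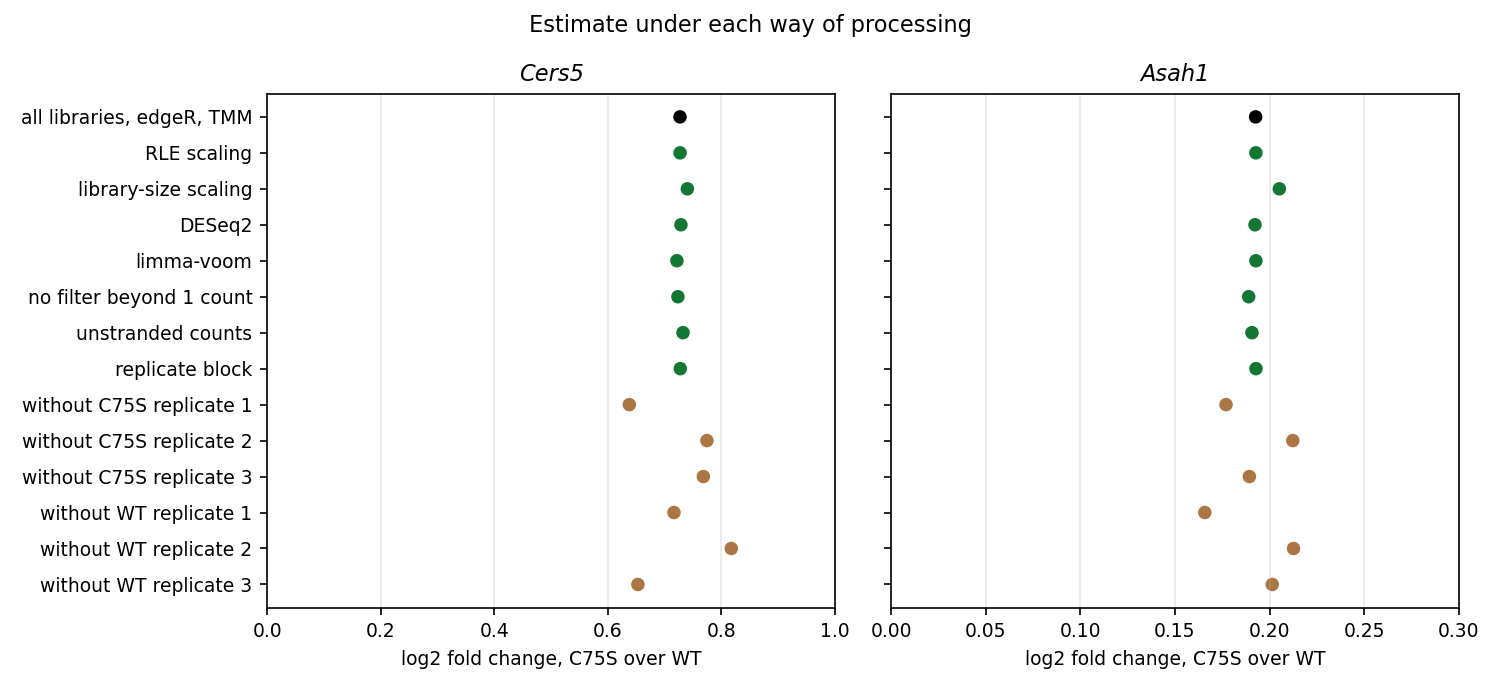
Log2 fold change of C75S over WT for *Cers5* and *Asah1* under each way of processing, with the axis starting at 0; black is edgeR on all libraries, green are alternatives on all libraries and brown are fits without 1 library. *Cers5* lies between 0.64 and 0.82 and *Asah1* between 0.17 and 0.21, with the widest spread among the fits without a library.

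The rest of the pathway was examined through 73 other sphingolipid genes in 9 lists by role, none of them in the set above. The lists too were drawn up with earlier results of these data known. Their counts and p-values are therefore a description and no independent check of the pathway. Of these, 58 passed the filter, 15 did not, and 5 (*Sptlc3*, *Cers1*, *Ugt8a*, *Acer1* and *S1pr4*) had 0 counts in every library. None of the 58 was called by edgeR at an adjusted p-value under 0.05, by DESeq2 or by limma-voom. At an unadjusted p-value under 0.05 in edgeR there were 9 of the 58 (15.5%), 8 higher and 1 lower in C75S, against 13.4% of all genes tested. The groups did not overlap for 12 (20.7%), 9 higher and 3 lower, against 18% of all genes tested, of which 1149 were higher and 1142 lower. The median log2 fold change was 0.02.

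Regulators of the first step gave 4 testable genes of 6, with 2 higher and 2 lower estimates. *Ormdl3*, an inhibitor of serine palmitoyltransferase, had the highest level of them at 151 ± 7.66 TPM over the 6 libraries. It was measured at 108 ± 2.07 CPM in C75S, against 115 ± 5.75 CPM in the WT libraries (SD, n = 3 each), with no overlap between the groups but an adjusted p-value of 0.492 in edgeR. Of the later de novo genes, *Kdsr*, the reductase of the second step, was the only one tested of 5, at 21.4 ± 1.80 CPM in C75S, against 20.9 ± 1.49 CPM in the WT libraries.

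Sphingomyelin synthesis and breakdown had 9 genes tested of 9, with 6 higher estimates. *Smpd3*, a neutral sphingomyelinase, had the smallest adjusted p-value of all 58 genes. It was measured at 72.1, 75.5 and 66.4 CPM in C75S, against 63.4, 59.8 and 64.2 CPM in the WT libraries, so that the groups did not overlap. Its log2 fold change was 0.19 (SE 0.06), and edgeR gave it an adjusted p-value of 0.0913, which ranged from 0.0451 without C75S replicate 3 to 0.378 over the 13 alternative fits. *Smpd1*, the acid sphingomyelinase, was the gene of the list with the highest level and was measured at 64.5 ± 2.77 CPM in C75S, against 60.3 ± 1.176 CPM in the WT libraries.

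Enzymes that build complex glycosphingolipids had 5 testable genes of 8, of which 4 had lower estimates in C75S. *B4galnt1*, which extends gangliosides, was measured at 310 ± 19.7 CPM in C75S, against 333 ± 10.6 CPM in the WT libraries, for which edgeR gave a log2 difference of -0.10 (SE 0.05, adjusted p = 0.418). *St3gal5*, the synthase of the ganglioside GM3, is named after its values were seen. It was measured at 84.5, 101 and 116 CPM in C75S, against 107, 131 and 129 CPM in the WT libraries, with C75S replicate 3 above WT replicate 1. Its log2 fold change was -0.28 (SE 0.14), and edgeR gave it an adjusted p-value of 0.462. It was called in 3 of 13 alternative fits, those without the filter, with a replicate block and without C75S replicate 3, and its adjusted p-value ranged from 0.00161 to 0.659.

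Genes that break glycosphingolipids down, most of them lysosomal like *Asah1*, were all testable, and 10 of 12 had higher estimates in C75S with a median of 0.11, against 49.1% higher estimates over all genes tested. At an unadjusted p-value under 0.05 in edgeR there were 4, all higher, where the share over all genes is 13.4%. Groups did not overlap for 5 genes, 4 of them higher and 1 lower in C75S, where that share is 18%. None of the 12 was called, and the list was not compared with other genes by a test. *Neu1*, the lysosomal sialidase, had the smallest p-value of the list: it was measured at 94.4, 84.4 and 89.7 CPM in C75S, against 77.2, 83.3 and 78.2 CPM in the WT libraries, for which edgeR gave a log2 difference of 0.17 (SE 0.06, adjusted p = 0.125). Over the alternative fits that adjusted p-value ranged from 0.0818 to 0.434. *Psap*, the precursor of the saposins that activate these hydrolases, had the highest level, at 361 ± 12.1 CPM in C75S, against 352 ± 11.5 CPM in the WT libraries, and overlapped.

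For the other ceramidases and for sphingosine 1-phosphate metabolism, 9 of 11 genes were tested and 7 had lower estimates, with a median of -0.06. *Aldh3a2*, the fatty aldehyde dehydrogenase at the end of sphingosine 1-phosphate breakdown, was measured at 274, 321 and 292 CPM in C75S, against 331, 306 and 346 CPM in the WT libraries. The groups overlapped, and the log2 fold change was -0.15 (SE 0.06, edgeR adjusted p = 0.225, from 0.0649 to 0.618 over the alternative fits). For sphingosine 1-phosphate transport and receptors, 5 of 7 genes were tested. All 5 had higher estimates, with a median of 0.29, against 49.1% higher estimates over all genes tested. The highest estimates of the list, 0.52 and 0.41, came from genes with only 6 to 17 counts per library. *Spns2*, a sphingosine 1-phosphate exporter, was measured at 20.96, 18.5 and 26.5 CPM in C75S, against 17.2, 18.2 and 18.3 CPM in the WT libraries. The groups did not overlap, and C75S replicate 3 was the highest. The log2 fold change was 0.29 (SE 0.11, edgeR adjusted p = 0.178), 0.14 without C75S replicate 3 and 0.41 without C75S replicate 2, and the adjusted p-value ranged from 0.0368 to 0.71 over the alternative fits.

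Ceramide and glycolipid transfer proteins (4 tested of 4) and enzymes of fatty acyl-CoA elongation (9 tested of 11) had medians of 0.01 and 0.02. *Cert1*, which carries ceramide from the endoplasmic reticulum to the Golgi, was measured at 63.3 ± 3.24 CPM in C75S, against 63.9 ± 4.55 CPM in the WT libraries. *Tecr*, the last reductase of the elongation cycle that supplies long acyl chains to ceramide synthases, was measured at 173 ± 10.6 CPM in C75S, against 175 ± 6.36 CPM in the WT libraries.

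**Figure D4:**
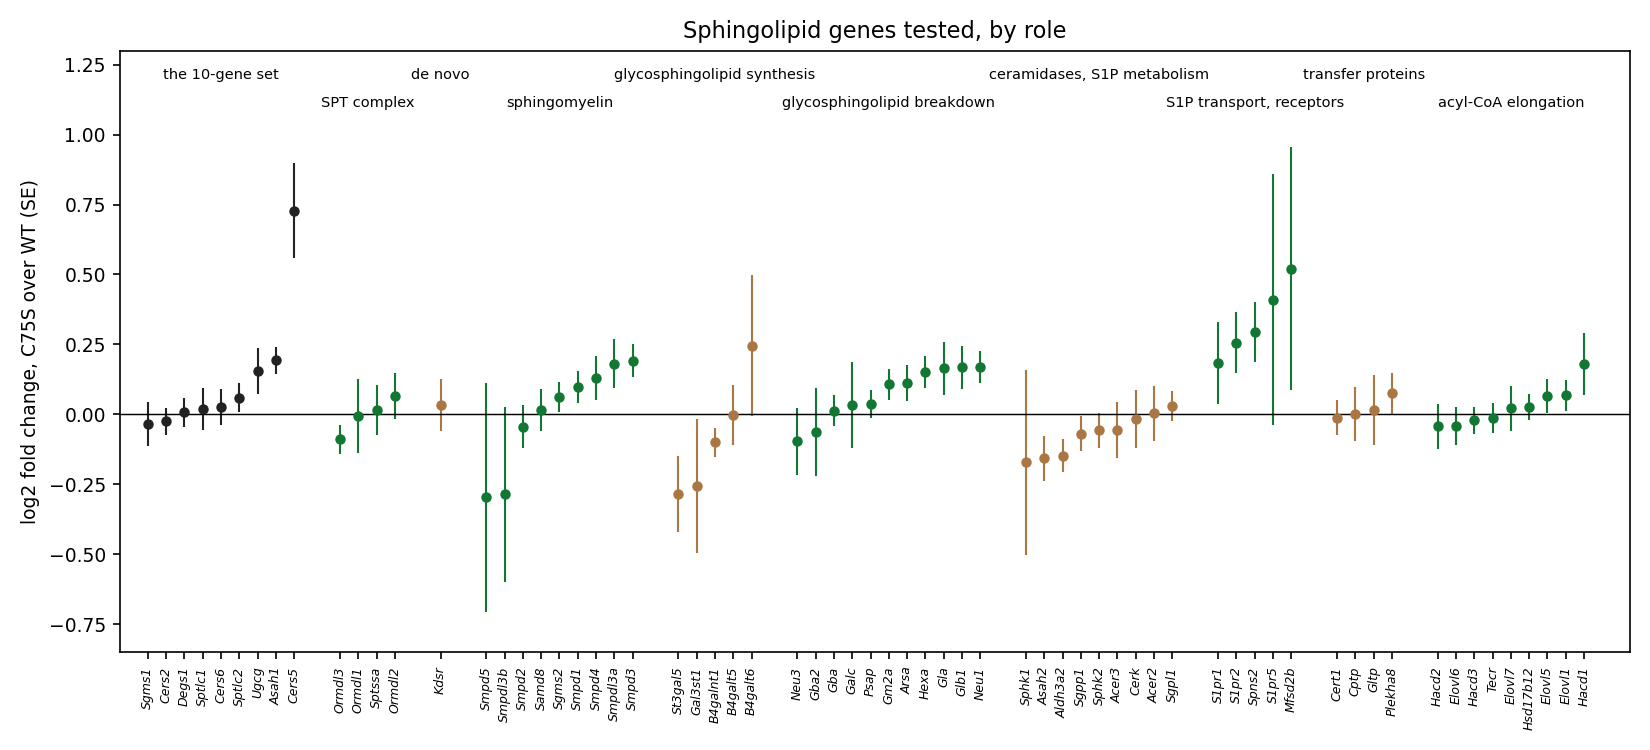
Log2 fold change of C75S over WT with its SE from edgeR, for the 9 tested genes of the set (black, left) and the other sphingolipid genes tested, grouped by role in alternating colours; 1 of these 58 is not drawn. *Cers5*, at 0.73, is the highest point of all, in a set drawn up with this comparison in view, so nothing is read from its place. None of the genes outside the set was called.

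Some marker genes of other cell types were higher in C75S, while others were lower or overlapped between the genotypes. The summed CPM of 6 cholangiocyte markers was 144 to 197 in C75S and 122 to 133 in WT, and *Spp1*, at means of 131 and 91.0 CPM, made up most of it. *Krt19* was called by edgeR, at 9.52 CPM in C75S over 5.47 CPM in WT on average (adjusted p = 0.00151). *Sox9* stood at means of 28.5 and 29.7 CPM, *Epcam* was lower in every C75S library (0 to 0.107 against 0.146 to 0.57 CPM), and *Cftr* had 0 counts throughout; 4 of the 6 were over 3 counts in each library. Of 8 endothelial markers, 6 were tested and none was called by edgeR. *Lyve1* (means 2.47 and 1.36 CPM, unadjusted p = 0.00686 in edgeR), *Pecam1* (3.19 and 1.97 CPM, unadjusted p = 0.0161) and *Kdr* (0.906 and 0.562 CPM, unadjusted p = 0.116) were each higher in C75S without overlap. Over all genes tested, the groups of 18% did not overlap. With overlap, *Cdh5* was higher in C75S on average (4.45 and 3.51 CPM) and *Egfl7* lower (4.83 and 5.24 CPM). *Stab2*, at means of 24.9 and 26.4 CPM, carried most of the endothelial sum, which overlapped between genotypes (35.7 to 47.0 CPM in C75S, 34.6 to 46.2 in WT). The part of these cells in the values of *Cers5*, *Asah1* and the sphingosine 1-phosphate genes was not tested. Summed markers of other cell types overlapped too, narrowly for stellate cells (54.6 to 71.5 in C75S and 70.2 to 92.6 in WT, 8 genes). The sums also overlapped for Kupffer cells and macrophages (1.33 to 1.87 and 1.26 to 2.33, 8 genes) and lymphocytes (0 to 0.474 and 0 to 0.195, 6 genes). *Reln* carried most of the stellate sum, at means of 58.7 CPM in C75S and 75.2 in WT. Its groups overlapped, at a log2 fold change of -0.36 (unadjusted p = 0.0566 in edgeR). Of the other stellate markers tested, *Rgs5* (0.24) and *Col1a1* (0.12) had higher estimates, and *Dcn* (-0.14) and *Col3a1* (-0.05) lower ones.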

How the data were processed

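The deposited files hold raw counts per Ensembl gene, 1 file per library, in the layout of STAR's gene counts. The submitters' processing notes name Trim Galore 0.6.6, STAR 2.7.9a, edgeR 3.36.0 and the builds mm10 and GRCm38, and the annotation release is not given in the sources used here. The reverse-strand column, 33.3 times the forward-strand column in sum, was used. The 4 summary rows, 28.8% to 30.2% of reads (multimapping reads alone 18.0% to 18.5%), were left out.

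Genes were filtered with edgeR's filterByExpr (minimum count 10, minimum total 15), and TMM scaling was applied. Genotype was tested by the two-sided robust quasi-likelihood F-test of edgeR 4.0.16 under R 4.3.3, without a block, with Benjamini-Hochberg adjustment over 12741 genes and a threshold of 0.05. The SE is the size of the log2 fold change over the square root of F. CPM uses TMM-scaled library sizes, and TPM uses the union of exons in GENCODE M21 (GRCm38), which had a length for 55227 of 55487 genes. A count of 3, the limit that 0 counts allow, is 0.143 to 0.177 CPM and covers counting error only.

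Protein sequences were not used here. Coding sequences were aligned by codon with MAFFT 7.526, and copies among genes outside the set were sought with BLAST 2.17.0. Of the 73 other sphingolipid genes, 72 matched by symbol and 1 by a RefSeq synonym (*Cert1*, *Col4a3bp* in GENCODE). Named were all genes of the set and, in each list, the gene with the highest TPM, any with an adjusted p-value under 0.05, and the one with the smallest p-value where that was under 0.05 unadjusted. The set and lists were chosen with earlier results of these data known. Alternatives were DESeq2 1.42.0, limma-voom (limma 3.58.1), RLE and library-size scaling, no filter, unstranded counts, a replicate block and leaving out each library. The values of 1 listed gene are not reported here.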

Additional observations from a re-analysis of the deposited data

How the results depend on the processing

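Over all genes, the 396 calls became 348 to 573 in the 7 alternatives on all libraries and 201 to 355 with a library left out, the lowest being 253 (no C75S replicate 1), 201 (no WT replicate 2) and 246 (no WT replicate 3). The count of calls in the set, from which nothing is read, was 0 to 2 without a library, with 0 when C75S replicate 1 or WT replicate 3 was left out. The median log2 fold change of the set ranged from 0.0054 to 0.059 without a library. Of the other sphingolipid genes 1 was called without the filter and 1 with a replicate block, *St3gal5* each time, and 0 to 2 without a library: *Hexa* and *Spns2* without C75S replicate 2, and *St3gal5* and *Smpd3* without C75S replicate 3. Estimates near 0 changed sign when a library was left out: *Tecr* (lowest -0.064, but 0.020 without C75S replicate 1, 0.0028 without C75S replicate 3 and 0.016 without WT replicate 3), *Kdsr* (0.10 without C75S replicate 1, -0.0065 without C75S replicate 2, -0.023 without WT replicate 1), *Cert1* (-0.051 without C75S replicate 2, 0.024 without C75S replicate 3, 0.050 without WT replicate 1), and in the set *Degs1* (-0.033 without WT replicate 1, -0.0049 without C75S replicate 3), *Sptlc1* (-0.0085 without C75S replicate 3) and *Cers6* (-0.041 without WT replicate 3). With the longest transcript as the length, *Cers2* made up 93.4% and *Cers6* 5.32% of summed ceramide synthase TPM, against 91.6% and 6.86%, and the order of the 10 genes was the same. Deviations of libraries with the same replicate number were hardly correlated (0.017, -0.040 and 0.025). C75S replicate 3 correlated best with the WT library of its own number, and C75S replicates 1 and 2 with another. These values do not settle whether the numbers pair the libraries. The block gave 480 called genes. Depth limits *Cers4*, *Cers1* and *Cers3*, for which a difference was not detectable, and *Cers5*, whose 72 to 128 counts give the largest SE in the set.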
